A study of Mus musculus with 6 samples.

Results

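The genes described here are 40 mouse genes of the extracellular matrix and of mesenchymal cells, the cell class that includes fibroblasts and other stromal cells. They were chosen, with earlier results of these data known, as collagens, other matrix proteins, matrix-processing enzymes, contractile proteins and stromal receptors or regulators. The shares of all tested beside their counts are therefore a description and not a test of the list. Their probes were found through the RefSeq accession that each array probe carries. All 40 had a probe on the array, and all 40 passed the filter on dim probes, among 29197 genes and transcripts tested. RNA came from Lhx2 cells, a mouse line of blood progenitor-like cells made to grow in culture by forced expression of the transcription factor Lhx2, in medium with stem cell factor and interleukin 6. All 6 samples were kept without serum overnight, with bovine serum albumin in its place. Then 3 samples stayed untreated and 3 received the cytokine TGF-β1 (transforming growth factor β1) for 2 h, at a dose of 10 ng/ml. The samples of each group carry the replicate numbers 1, 2 and 3, and the series design speaks of 3 separate RNA harvests. No label states that an untreated and a treated sample of the same number come from 1 harvest. They deviated together from their group means, so they are called a harvest, and a pair, below. All samples are of a single cell line. Nothing in the labels tells how far apart the harvests were in time or passage, so p-values measure only the spread between these samples.

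Fibrillar collagens such as types I, III and V form the tensile fibres of connective tissue, and type IV collagen forms the sheet of basement membranes. New collagen chains are folded with the chaperone Serpinh1, trimmed outside the cell with help from Pcolce, and crosslinked by the lysyl oxidases Lox and Loxl1, while matrix metalloproteinases cut matrix and Timp1 inhibits them. In fibroblasts TGF-β is a classic inducer of collagen, fibronectin and the CCN proteins, and bone marrow stroma, not the blood progenitors themselves, is known as the main source of fibrillar collagen in marrow. The values below therefore address 2 separate questions, namely how the level of each gene differed between harvests and how it differed between the treated and the untreated sample within a pair.

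Across the 6 arrays the 75th percentile of processed signal ran from 794.2 to 1031, and 83.1% to 90.5% of the probes were well above background. Of the 40 genes 39 were well above background on all 6 arrays, and Fbn1 on 5. A level below is the log2 processed signal of a probe minus the 75th percentile of its array, so 0 is a bright probe, and levels are compared between arrays and never between genes. Among markers of the labelled cell type, Kit, the stem cell factor receptor, had levels of 2.02 to 3.16, Ptprc, the pan-leukocyte antigen CD45, 3.44 to 4.23, and the progenitor antigen Cd34 5.62 to 6.20. The Lhx2 probe lay between -4.55 and -3.86. Slide 1 held untreated samples 1 and 3 and treated sample 1, and slide 2 held untreated sample 2 and treated samples 2 and 3. Pairs 1 and 2 thus each lay on a single slide, pair 3 spanned both, and harvests 1 and 2 never shared a slide.

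Most of these genes differed in level between harvests, and all that did were lowest in harvest 3 on the average. With limma's moderated F-test between the 3 replicate numbers, with treatment in the model and Benjamini-Hochberg adjustment over all 29197 genes and transcripts, 27 of the 40 passed the threshold of 0.05, against 3.06% of all tested. Of the 40 genes 27 were higher in harvest 2 than in harvest 3 (2.84% of all tested were) and 23 were higher in harvest 1 than in harvest 3 (1.36% of all). In the opposite direction limma's contrasts called 0 of 40 lower in harvest 2 than in harvest 3 (0.541% of all tested; at an unadjusted p under 0.05, 1 of 40, Thy1) and 0 lower in harvest 1 than in harvest 3 (0.521% of all; 0 of 40 unadjusted). Both differences share the 2 arrays of harvest 3. The median difference between harvests 2 and 3 was 2.93 log2 units over the 40 genes and 0.03 over all tested, and between harvests 1 and 3 it was 1.88 against -0.08. Differences above 3 log2 units between harvests 2 and 3 were found for 19 of the 40, and for 0.884% of all tested. In these bulk samples fewer cells of a type and less RNA per cell cannot be told apart. Each harvest is 1 untreated and 1 treated array, so these tests set the harvests against the disagreement left within harvests after the mean treatment effect.

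Harvest 2 also lay above harvest 1 for most of the genes that differed. In 24 of the 40 genes both arrays of harvest 2 lay above both of harvest 1, and these above both of harvest 3, an order that 3.6% of all tested showed. Harvest 2 was higher than harvest 1 past the threshold for 14 of the 40 (0.918% of all tested), and lower in limma's contrast for 0 (0.0651% of all; at an unadjusted p under 0.05, 1 of 40, Col4a2). That count of 14 fell to 0 with the slide as a block, with no filter on dim probes, and on leaving out any single array of harvest 1 or 2, and it rose to 29 on leaving out either array of harvest 3. Harvests 1 and 2 lay on different slides. The differences from harvest 3 could be read within a slide. On slide 1 untreated sample 1 exceeded untreated sample 3 by over 1 log2 unit in 26 of the 40 genes, as in 2.75% of all tested, and on slide 2 treated sample 2 exceeded treated sample 3 by over 1 in 28 of the 40, as in 3.61% of all tested. In the 27 genes past the F-test, which were chosen on these same arrays, these differences were 0.387 to 5.96 and 1.33 to 7.33 log2 units.

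**Figure D1:**
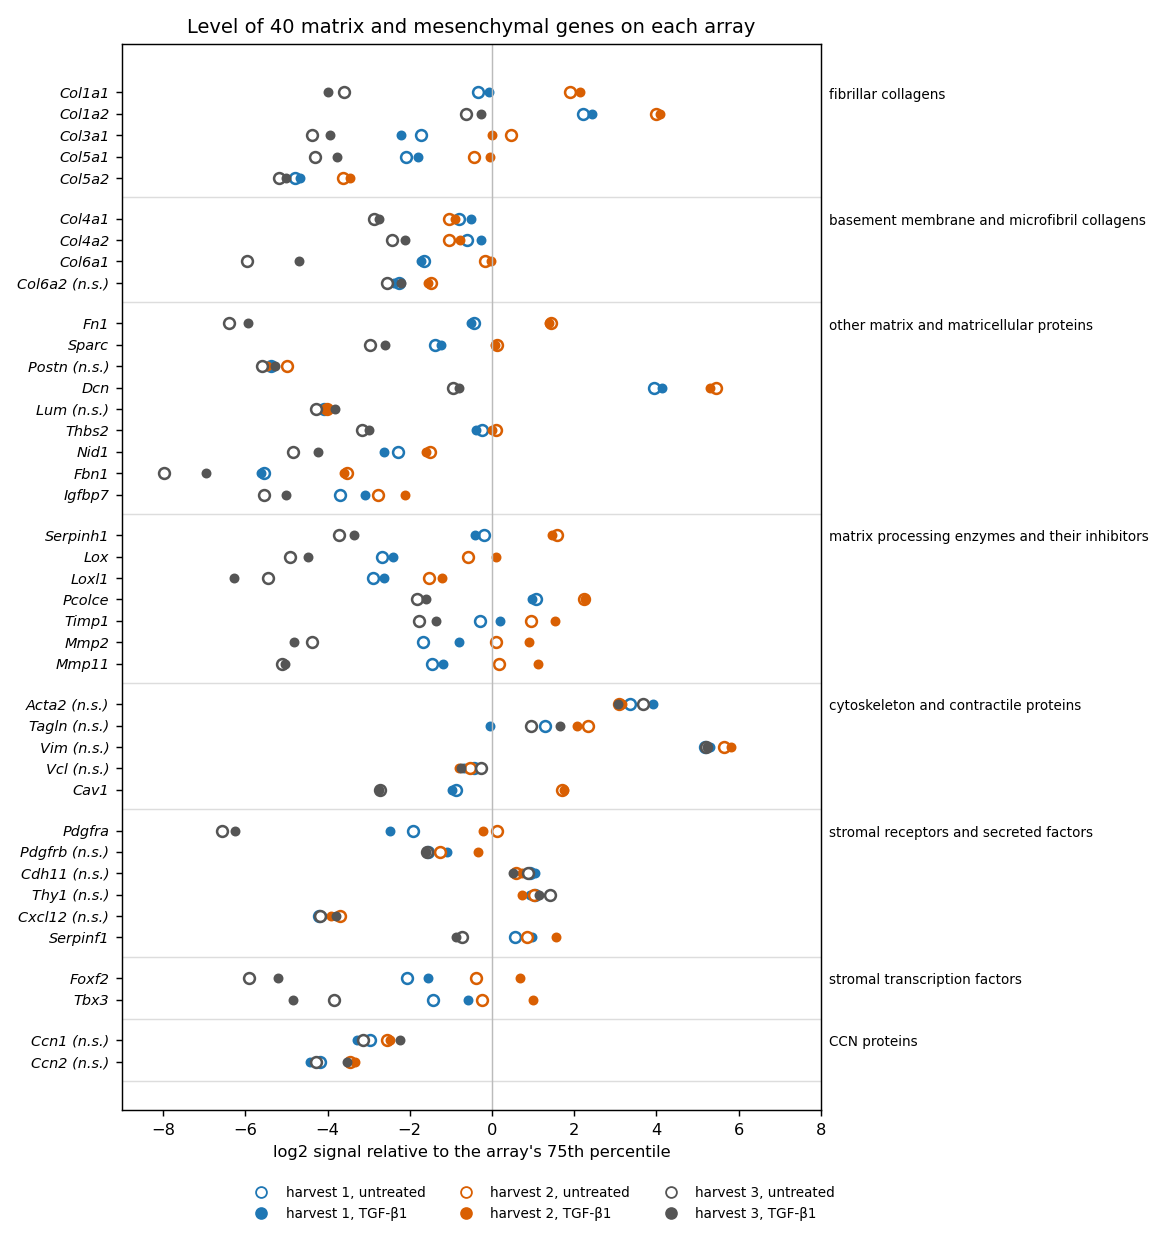
Level of each of the 40 genes (log2 signal relative to the array's 75th percentile, horizontal axis) on the 6 arrays, with open circles for untreated and filled circles for TGF-β1-treated samples, coloured by harvest and grouped by role; n.s. marks the 13 genes that did not pass the F-test between harvests. In most genes past the test the colours stand apart, for example at about -6, 0 and 1 for Fn1, while in genes such as Acta2, Postn and Lum they overlap, and the 2 harvest 1 arrays of Tagln lie 1.34 apart.

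The 5 fibrillar collagen genes all passed the F-test, with the order harvest 2, 1, 3 on both arrays of each. Col1a1, which encodes the α1 chain of type I collagen, had levels of -0.35 untreated and -0.06 treated in harvest 1, 1.91 and 2.13 in harvest 2, and -3.61 and -4.00 in harvest 3. The 3 harvests did not overlap, and the treated sample was the higher in harvests 1 and 2 and the lower in harvest 3. Harvest 2 exceeded harvest 3 by 5.82 log2 units (SE 0.21, 2 arrays a harvest, adjusted p of limma's contrast 0.000737), which is 56.5-fold. Col1a2, the α2 chain of the same fibre, had 2.22 and 2.43 in harvest 1, 3.99 and 4.10 in harvest 2, and -0.62 and -0.27 in harvest 3. Its difference between harvests 2 and 3 was 4.49 (SE 0.14, adjusted p 0.000551). Col3a1, the type III chain of reticular fibres, differed by 4.38 and Col5a1, a type V chain that nucleates fibrils, by 3.80. Col5a2 differed least of the 5, with -4.78 and -4.67 in harvest 1, -3.63 and -3.44 in harvest 2, and -5.17 and -5.02 in harvest 3. Both of its harvest 1 arrays lay above both of harvest 3, by 0.37 on average, which did not pass (adjusted p of limma's contrast 0.295).

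Collagens of basement membranes and microfibrils did not all follow that order. Col4a1 and Col4a2 encode the 2 chains of the common type IV collagen network. Col4a1 had -0.80 untreated and -0.51 treated in harvest 1, -1.06 and -0.90 in harvest 2, and -2.86 and -2.75 in harvest 3. Col4a2 had -0.60 and -0.27, then -1.06 and -0.78, then -2.44 and -2.11. For both, harvest 3 was lowest and harvest 1, not harvest 2, was highest on average, with harvest 2 minus harvest 1 at -0.32 (adjusted p 0.209) and -0.48 (adjusted p 0.144), which did not pass. In the RefSeq table of assembly GRCm38.p6 their start sites lie 21 bases apart on opposite strands of chromosome 8, at 11312826 and 11312805. Col6a1, a chain of the microfibrillar type VI collagen, was 5.24 higher in harvest 2 than in harvest 3 (SE 0.35, adjusted p 0.00374). Its partner Col6a2 had -2.26 and -2.37 in harvest 1, -1.49 and -1.57 in harvest 2, and -2.56 and -2.22 in harvest 3, and did not pass the F-test (adjusted p 0.12).

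Promoters are shown for a gene that differed strongly between harvests, Col1a2, and for Vim and Vcl, which did not pass the F-test. Each is the 250 bases before the RefSeq start site (assembly GRCm38.p6, plus strand, 5′ to 3′), with capitals on CCAAT, the letters TATAAA and the CArG box, matched on either strand, so that ATTGG is CCAAT on the other strand. The windows are chr6:4505368-4505617 for Col1a2, chr2:13574061-13574310 for Vim and chr14:20929148-20929397 for Vcl.
Col1a2: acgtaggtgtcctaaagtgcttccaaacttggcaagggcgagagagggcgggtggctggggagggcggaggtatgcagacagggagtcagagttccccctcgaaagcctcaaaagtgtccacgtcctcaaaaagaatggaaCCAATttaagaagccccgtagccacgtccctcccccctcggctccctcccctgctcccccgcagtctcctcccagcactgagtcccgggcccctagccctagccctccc
Vim: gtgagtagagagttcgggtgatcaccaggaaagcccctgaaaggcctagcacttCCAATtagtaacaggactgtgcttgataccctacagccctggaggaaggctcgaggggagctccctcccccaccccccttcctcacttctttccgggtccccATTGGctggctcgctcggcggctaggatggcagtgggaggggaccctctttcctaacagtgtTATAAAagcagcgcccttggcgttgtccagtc
Vcl: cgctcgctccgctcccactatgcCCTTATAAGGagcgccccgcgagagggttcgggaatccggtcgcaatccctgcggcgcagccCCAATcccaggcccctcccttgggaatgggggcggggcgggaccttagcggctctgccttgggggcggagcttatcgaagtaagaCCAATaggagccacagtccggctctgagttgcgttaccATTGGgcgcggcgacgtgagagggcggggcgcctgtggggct

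Of the 40 genes 26 are in the RefSeq promoter table, which gives 250 bases before and 50 after each start for 27025 genes. CCAAT, on either strand, was in 10 of the 26 windows and in 37.9% of all. CAGAC, the letters of a SMAD-binding element, was in 13 of 26 and 49.7% of all. GGGCGG, the letters of a GC box, was in 17 of 26 and 35.9% of all, while TATAAA was in 5 and 14.2% of all. GGAATG, the letters of a TEAD site, was in 7 of 26 and 14.6% of all, and TGANTCA, an AP-1 pattern, in 1, that of Col6a1, and 7.93% of all. The CArG box, the site of serum response factor, was in 1 of the 26, that of Vcl at position -227, and in 1.57% of all. Among the 19 genes in the table that passed the F-test CCAAT was in 7, and among the 7 that did not it was in 3. These are matches of letters in a short window and not sites of binding.

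Among the other structural and matricellular proteins 7 of 9 passed the F-test. Fn1, which encodes fibronectin, the adhesive protein on which integrins pull, had the widest difference of the 40 genes on the probes used. Its levels were -0.44 untreated and -0.50 treated in harvest 1, 1.43 and 1.39 in harvest 2, and -6.40 and -5.94 in harvest 3. The untreated harvest 3 level lay near -7.05, the lowest level well above background on that array. Harvest 2 exceeded harvest 3 by 7.58 log2 units (SE 0.18, adjusted p 0.000434) and harvest 1 exceeded it by 5.70 (SE 0.18, adjusted p 0.00182). Dcn, decorin, a small proteoglycan that coats collagen fibrils, had 3.93 and 4.15 in harvest 1, 5.45 and 5.30 in harvest 2, and -0.95 and -0.79 in harvest 3. Harvest 3 lay far below the other two, by 4.91 and 6.25. Thbs2, a thrombospondin that restrains vessel growth, had -0.25 and -0.39, then 0.09 and 0.01, then -3.15 and -2.99. Its harvest 2 exceeded harvest 1 by 0.37, which did not pass (adjusted p of limma's contrast 0.199), and harvest 3 lay far below both. Sparc, a collagen-binding glycoprotein, differed by 2.88 between harvests 2 and 3, Nid1, the nidogen that links laminin to collagen IV, by 2.98, and Igfbp7, a secreted binding protein of the insulin-like growth factor system, by 2.83. Fbn1, the microfibril protein fibrillin, was well above background on 1 of the 2 arrays of harvest 3 and differed by 3.90.

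Postn and Lum were the members of this group that did not pass. Postn, periostin, had -5.38 and -5.36 in harvest 1, -4.99 and -5.48 in harvest 2, and -5.60 and -5.27 in harvest 3, so the harvests overlapped. Lum, lumican, a proteoglycan related to decorin, lay between -4.28 and -3.82 on all 6 arrays. Harvest 2 minus harvest 3 was 0.20 for Postn (SE 0.23) and 0.04 for Lum (SE 0.19), within the error of either difference.

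All 7 genes for matrix processing passed the F-test, each with the order harvest 2, 1, 3. Serpinh1, the collagen chaperone HSP47, had -0.20 and -0.42 in harvest 1, 1.58 and 1.47 in harvest 2, and -3.72 and -3.36 in harvest 3. Lox had -2.67 and -2.40 in harvest 1, -0.58 and 0.10 in harvest 2, and -4.90 and -4.47 in harvest 3. Pcolce had 1.08 and 0.98, then 2.23 and 2.25, then -1.82 and -1.61. In these 3 genes the 2 arrays of a harvest differed by at most 0.68 log2 units, and harvests 2 and 3 by 5.06, 4.45 and 3.96. The gelatinase Mmp2 differed by 5.09 (SE 0.36, adjusted p 0.00439), the stromelysin Mmp11 by 5.72 (SE 0.25, adjusted p 0.00116), Loxl1 by 4.49 and Timp1 by 2.81.

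The cytoskeletal and contractile genes, often used as marks of myofibroblasts and smooth muscle, had 1 of 5 past the F-test, Cav1. Cav1, the coat protein of caveolae, had -0.89 and -0.98 in harvest 1, 1.71 and 1.76 in harvest 2, and -2.72 and -2.76 in harvest 3. Acta2, smooth muscle α-actin, had 3.35 and 3.92 in harvest 1, 3.10 and 3.16 in harvest 2, and 3.68 and 3.07 in harvest 3. Its probes disagreed. A dimmer passing probe had -1.12 and -1.17, then -0.82 and -0.88, then -0.43 and -0.54, so harvest 3 was highest without overlap. On a further passing probe harvest 1 was lowest and harvests 2 and 3 overlapped. Vim, the intermediate filament vimentin, which blood cells also make, had 5.18 and 5.31, then 5.65 and 5.81, then 5.21 and 5.24. Harvest 2 was the highest for Vim, by 0.50 over harvest 3 (SE 0.13), which did not pass (adjusted p 0.158). Tagln, transgelin, ranged from -0.04 to 2.34 with both extremes in harvests 1 and 2, and Vcl, the focal adhesion protein vinculin, from -0.81 to -0.27. Neither passed, with adjusted F-test p of 0.249 and 0.641.

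Of the 6 receptors and secreted factors of stroma, Pdgfra and Serpinf1 passed the F-test. Pdgfra, the platelet-derived growth factor receptor typical of fibroblasts, had -1.93 and -2.49 in harvest 1, 0.11 and -0.22 in harvest 2, and -6.56 and -6.24 in harvest 3, an 81.5-fold difference between harvests 2 and 3 (6.35 log2 units, SE 0.24, adjusted p 0.000846). The untreated harvest 3 level lay near -7.05, the lowest level well above background on that array. For Pdgfra a second passing probe gave 1.16 log2 units between harvests 2 and 3. Its relative Pdgfrb, more typical of pericytes, lay between -1.61 and -0.35 and did not pass (adjusted F-test p 0.248). Cdh11, a cadherin of mesenchymal cells, lay between 0.52 and 1.04, Thy1, a surface glycoprotein of fibroblasts and of lymphoid cells, between 0.73 and 1.41, and Cxcl12, the stromal chemokine that holds progenitors in marrow, between -4.20 and -3.69. These ranges span under 1 log2 unit over all 6 arrays, and none of the 3 passed. Only 1 of 3 probes of Cdh11 and 1 of 2 of Cxcl12 passed the filter. The other Cdh11 probes were not well above background on any array. Serpinf1, a secreted inhibitor of vessel growth, passed the F-test with 2.01 between harvests 2 and 3 (SE 0.23, adjusted p 0.021).

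The transcription factors Foxf2 and Tbx3, both known from mesenchyme of developing organs, passed. Foxf2 had -2.06 untreated and -1.54 treated in harvest 1, -0.39 and 0.69 in harvest 2, and -5.90 and -5.21 in harvest 3, a difference of 5.71 between harvests 2 and 3 (SE 0.18, adjusted p 0.000611). Tbx3 had -1.44 and -0.59, then -0.23 and 0.99, then -3.85 and -4.84, and differed by 4.72 with a wider SE of 0.56 (adjusted p 0.0221). The 2 CCN proteins, matricellular proteins encoded by targets of TGF-β and YAP signalling, did not pass. Ccn1 lay between -3.27 and -2.23 and Ccn2, connective tissue growth factor, between -4.42 and -3.34, with harvests 1 and 3 overlapping for both.

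**Figure D2:**
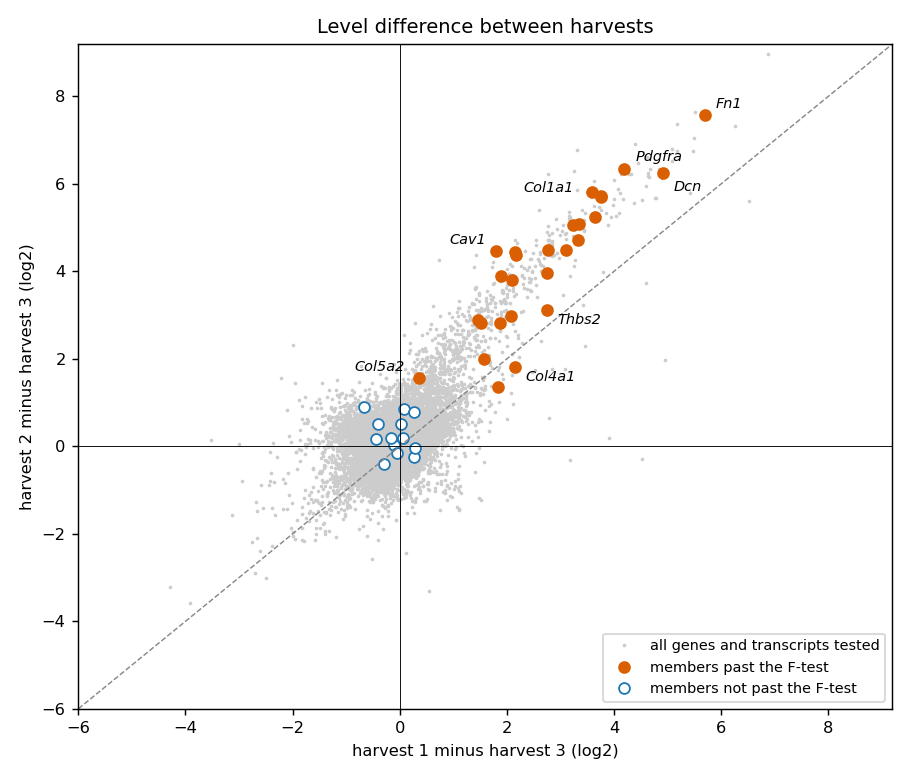
Difference of harvest 1 from harvest 3 (horizontal axis) against that of harvest 2 from harvest 3 (vertical axis), in log2 units, for all 29197 genes and transcripts (grey), the 27 genes past the F-test (filled) and the 13 that were not (open); the dashed line marks equal differences, and both axes share harvest 3. The filled points lie above the dashed line except Col4a1 and Col4a2, and the open points lie among the bulk of all genes.

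The size of the difference depended on the probe and on the signal scale. The 40 genes have 62 probes, of which 59 passed the filter, and 16 genes have several that passed. Among those past the F-test the difference between harvests 2 and 3 ranged over the probes of a gene from 0.45 to 5.82 for Col1a1, from 1.16 to 6.35 for Pdgfra, from 2.72 to 7.58 for Fn1 and from 0.35 to 4.38 for Col3a1. All passing probes of the genes past the test gave a positive difference between harvests 2 and 3. Between harvests 1 and 3 this did not hold. Of the 10 genes higher in harvest 1 than in harvest 3 that have several passing probes, 4 had another probe below 0, at -0.21 for Col1a1, -0.26 for Col3a1, -0.39 for Pdgfra and -0.07 for Cav1. The brightest probe, which stands for the gene here, gave the largest value for those 4 genes, whereas for Sparc a dimmer probe gave 7.39 and the one used 2.88. With normexp background correction and quantile normalization the median difference of the 27 genes was 2.85 in place of 4.45. In that setting 13 of the 27 values moved by over 1.5 times. Over 15 other settings 22 of the 27 genes passed the F-test in each, and those that missed it in at least 1 were Col5a2, Igfbp7, Fbn1, Serpinf1 and Tbx3. Of the 13 genes that did not pass, 6 passed in at least 1 of these settings. Vim and Col6a2 passed with the authors' matrix values, with normexp and on leaving out untreated sample 3, and Col6a2 also on leaving out treated sample 3. Thy1 passed with normexp, Ccn1 and Pdgfrb on leaving out untreated sample 3, and Ccn2 on leaving out either array of harvest 3.

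Within pairs the treated and the untreated sample were close. TGF-β1 changed 0 of the 40 genes past the threshold in limma's test without a block, where 0.253% of all genes and transcripts passed, and 0 of 40 with the replicate number as a block, where 0.651% passed. At an unadjusted p under 0.05 the test without the block had 1 of the 40, Vcl (5.77% of all), and the test with the block had 7 of the 40 (10.9% of all), namely Igfbp7, Foxf2, Timp1, Col5a1, Lox, Col4a2 and Vcl. The mean change over the 40 genes had a median of 0.11 log2 units, against -0.01 over all tested. Over the 6 arrays the share of the sum of squares between harvests had a median of 97.1% in the 40 genes and 59.9% over all tested, and the share between treated and untreated samples a median of 0.958% against 8.39%. Both are shares of the same total, so a large harvest share lowers the treatment share whatever the size of the change. For the 27 genes past the F-test the SE of the TGF-β1 change had a median of 1.42 without the block and 0.148 with it. The 95% interval with the block lay within a 2-fold change either way for 35 of the 40 genes and reached a 2-fold change for 5.

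**Figure D3:**
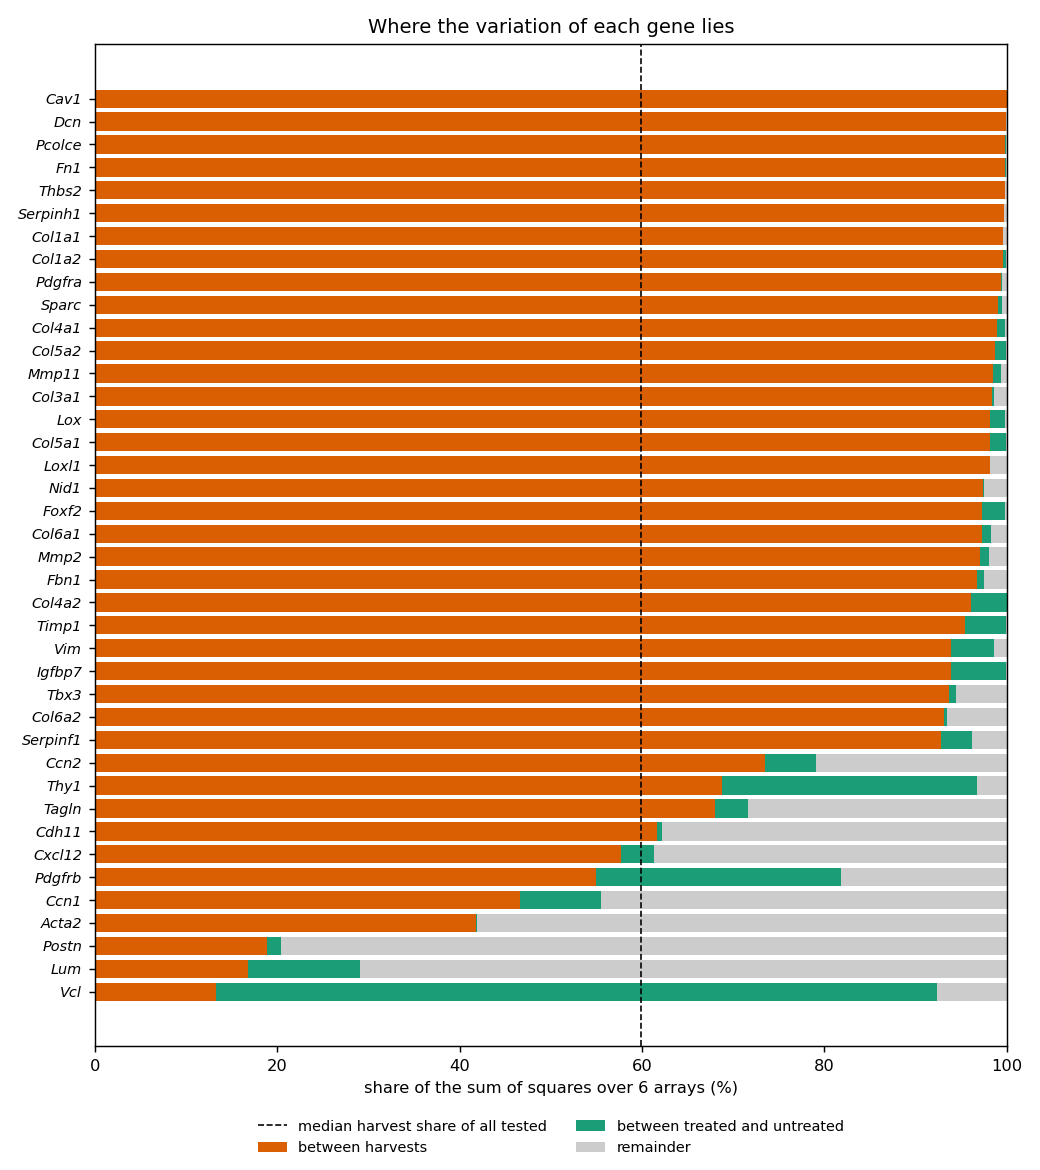
Share of each gene's sum of squares over the 6 arrays (percent, horizontal axis) that lay between harvests, between treated and untreated samples, and in the remainder, with a dashed line at the median harvest share of all tested, 59.9%. The harvest share is above 90% for 29 genes, and Vcl is the gene with the largest treatment share, 79.1%.

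The positive changes with an unadjusted p under 0.05 in the block fit had means of 0.31 to 0.76 log2 units. None of the 6 passed after adjustment. Igfbp7 changed by 0.61, 0.66 and 0.52 log2 units in pairs 1, 2 and 3, a mean of 0.60 with a 95% interval of 0.33 to 0.87 in the block fit and an adjusted p of 0.125 there. Foxf2 changed by 0.52, 1.08 and 0.69, a mean of 0.76 (SE 0.15, adjusted p 0.157 with the block). Its 95% interval in that fit, 0.37 to 1.15, reached a 2-fold change. Timp1 changed by 0.50, 0.58 and 0.42, a mean of 0.50 (SE 0.11, adjusted p 0.184 with the block). In these 3 genes every treated sample lay above its own untreated sample, yet the treated and untreated groups overlapped because the harvests lay further apart than the change. Col4a2, at 0.34, 0.27 and 0.33, and Col5a1, at 0.29, 0.40 and 0.55, had smaller values of the same sign, and Lox had 0.27, 0.68 and 0.44.

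The sign of the change was the same in all 3 pairs for 13 of the 40 genes (34.2% of all tested), positive for 11 and negative for Vcl and Thy1. Vcl had -0.44 untreated and -0.68 treated in pair 1, -0.53 and -0.81 in pair 2, and -0.27 and -0.74 in pair 3. It was the single gene of the 40 whose treated and untreated samples did not overlap, an outcome that 10.4% of all tested had, and its mean change of -0.33 had an adjusted p of 0.842 without the block and 0.398 with it. Thy1 changed by -0.11, -0.29 and -0.26.

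The fibrosis genes best known as TGF-β targets in fibroblasts had changes of no settled sign at 2 h. Col1a1 changed by 0.29, 0.22 and -0.39 (mean 0.04, 95% interval -0.41 to 0.49 with the block). Fn1 changed by -0.06, -0.04 and 0.45 (mean 0.12, interval -0.27 to 0.50), and Serpinh1 by -0.22, -0.11 and 0.36 (mean 0.01, interval -0.39 to 0.41). For these genes the intervals exclude a 2-fold change in either direction. Ccn2 changed by -0.22, 0.11 and 0.74 (mean 0.21, interval -0.34 to 0.75), Ccn1 by -0.30, 0.07 and 0.90, and Acta2 by 0.57, 0.06 and -0.60. The widest disagreement between pairs was in Tbx3, at 0.85, 1.22 and -0.99, in Tagln, at -1.34, -0.27 and 0.71, and in Mmp2, at 0.88, 0.81 and -0.44.

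Pair 3, which spanned both slides, often differed in sign from the other pairs. Of the 40 genes 9 were negative in pairs 1 and 2 and positive in pair 3, as were 28.3% of all tested, and 8 were positive in pairs 1 and 2 and negative in pair 3, as were 8.41% of all tested. Over all genes and transcripts the median change was -0.07 in pair 1, -0.07 in pair 2 and 0.11 in pair 3, and over the 40 genes it was 0.11, 0.09 and 0.33. In pair 3 the slide and the treatment cannot be told apart. Without pair 3 in the block fit the count of genes past the threshold among the 40 was again 0, with 55 over all tested.

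**Figure D4:**
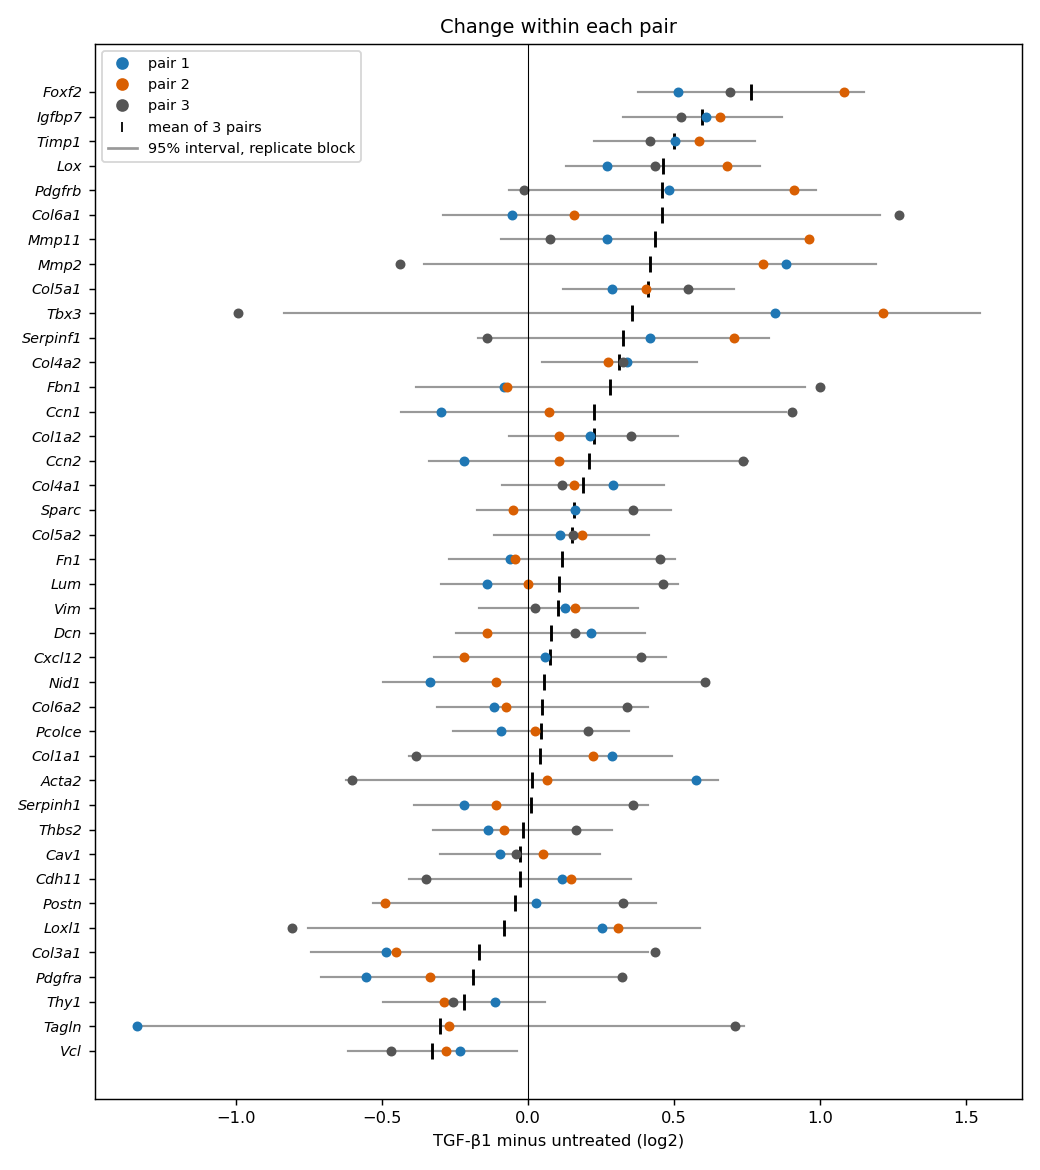
Change within each pair (TGF-β1 minus untreated, log2 units, horizontal axis) for the 40 genes, ordered by the mean of the 3 pairs, with the 95% interval of the fit with the replicate block as a line. Igfbp7, Foxf2 and Timp1 have all 3 pairs and the interval above 0, Vcl has them below 0, and Tbx3, Mmp2 and Tagln have pairs on both sides of 0.

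A wider list of 68 other matrix and mesenchymal genes, of which 66 could be tested, held further genes that were higher in harvest 2 than in harvest 3. That list was also drawn up with earlier results of these data known. In that list 18 of 66 passed the F-test (3.06% of all tested). Higher in harvest 2 than in harvest 3 were 23 (2.84% of all), and 1 was lower (0.541% of all). Higher in harvest 1 than in harvest 3 were 12 (1.36% of all). The median difference between harvests 2 and 3 was 0.715 log2 units, against 0.03 over all tested. Col16a1, a fibril-associated collagen, had 0.86 untreated and 0.86 treated in harvest 1, 2.71 and 2.93 in harvest 2, and -3.60 and -3.23 in harvest 3. Harvest 2 exceeded harvest 3 by 6.79 for Mmp14, the membrane metalloproteinase that activates Mmp2, 6.24 for Col16a1, and 6.23 for P4ha2, a subunit of collagen prolyl hydroxylase. The laminin chain Lamb1 and the secreted protein Fstl1 were well above background on 1 of the 2 arrays of harvest 3, with measured differences of 6.16 and 5.32. The actin regulator Cald1 was not well above background on either array of harvest 3, and its signal in harvest 2 was at least 31.6-fold higher, taken against the lowest signal well above background on those arrays. Of the 182 genes with a symbol that lay over 3 log2 units higher in harvest 2 than in harvest 3, 19 were among the 40 and 14 in this wider list.

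Within pairs this wider list held the calls for TGF-β1 that the 40 genes lacked. Thbs1, the thrombospondin that can activate latent TGF-β, had -0.46, -0.72 and -0.49 untreated and -2.07, -1.74 and -1.78 treated, and fell by 1.30 log2 units (SE 0.16, adjusted p 0.0437 without the block and 0.0586 with it). The treated and untreated samples of Thbs1 did not overlap, and harvests 1 and 2 differed from harvest 3 by -0.13 and -0.09. Tgfbi, a secreted matrix protein named for its induction by TGF-β, had 3.62, 3.69 and 4.54 untreated and 4.71, 4.67 and 5.58 treated. Its change of 1.04 had an adjusted p of 0.628 without the block and 0.0428 with it. Fstl1 changed by 1.92, 2.17 and 1.30 within pairs and missed the threshold with the block (adjusted p 0.052).

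Marker genes of other cell types were set beside the harvest difference, each list with its level summed over its tested genes as multiples of the array's 75th percentile. Such a sum gives most weight to the brightest probes of its list. The fibrillar collagens summed to 6.02 to 6.90 in harvest 1, 21.8 to 23.6 in harvest 2 and 0.859 to 1.06 in harvest 3. The 12 progenitor markers summed to 213.0 to 216.1, 189.8 to 201.3 and 193.3 to 201.3, so harvest 1 was the highest and harvests 2 and 3 overlapped. Of these markers 0 of 12 passed limma's F-test (4 of 12 at an unadjusted p under 0.05, against 21.4% of all tested). Of 8 megakaryocyte and platelet genes 3 passed (3.06% of all tested), namely Pf4, Itga2b and Ppbp. The list summed to 62.5 to 74.0 in harvest 1, 61.5 to 66.1 in harvest 2 and 18.8 to 21.6 in harvest 3. Over the 8 genes the median difference from harvest 3 was 0.89 log2 units for harvest 1 and 0.72 for harvest 2. Pf4, platelet factor 4, had 6.05 and 5.80, then 5.77 and 5.91, then 4.20 and 3.98, so harvest 3 was low for it as for the collagens. Of 10 neutrophil and granule genes 6 passed, and 5 of the 10 were lower in harvest 1 than in harvest 3 (0.521% of all). That list summed to 569.6 to 574.8 in harvest 1, 590.8 to 597.6 in harvest 2 and 645.5 to 729.1 in harvest 3. Over the 10 genes the median difference from harvest 3 was -1.49 log2 units for harvest 1 and -0.56 for harvest 2. S100a8, a calcium-binding protein of neutrophils, had 1.51 and 1.87, then 3.12 and 3.39, then 4.89 and 4.77, while Mpo, the granule peroxidase, lay between 8.46 and 8.60.

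**Figure D5:**
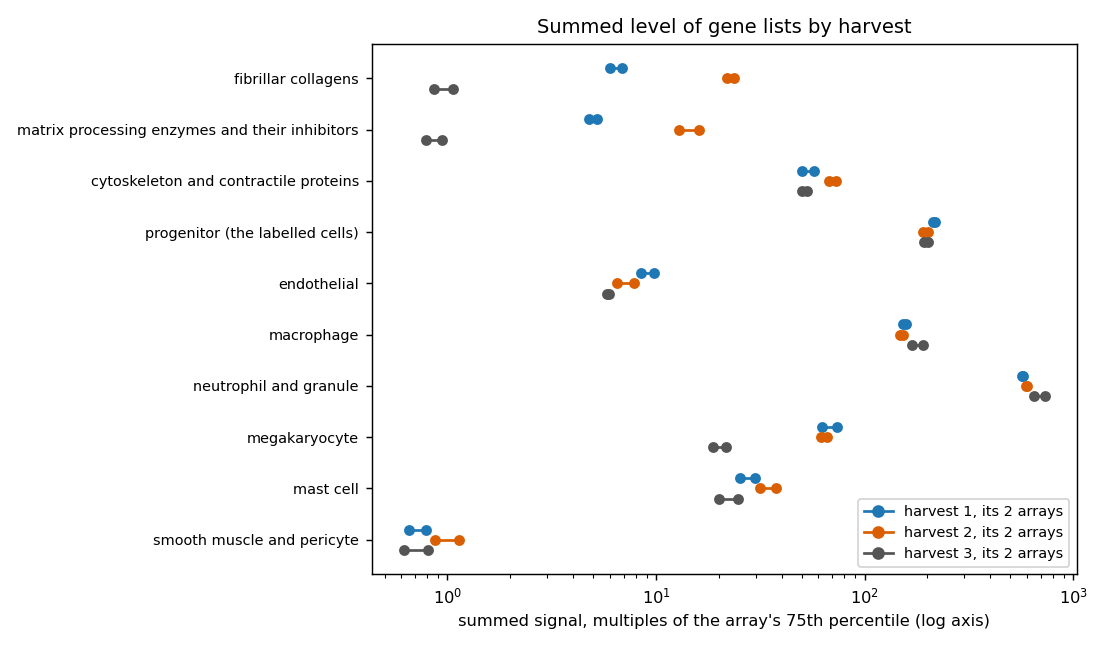
Summed level of 3 groups of the 40 genes and of 7 marker lists on the 2 arrays of each harvest (multiples of the array's 75th percentile, log axis; points are arrays and lines join the arrays of a harvest). The fibrillar collagens and the processing enzymes separate into harvest 2, 1 and 3 from high to low, the megakaryocyte list is low in harvest 3 alone, and the progenitor list is highest in harvest 1 and overlaps between harvests 2 and 3.

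The 9 macrophage genes summed to 153.2 to 157.1 in harvest 1, 148.4 to 151.9 in harvest 2 and 169.1 to 190.4 in harvest 3. Over these genes the median difference from harvest 3 was 0.27 log2 units for harvest 1 and -0.19 for harvest 2. Of the 9 Csf1r and Mrc1 passed the F-test (3.06% of all tested), in opposite directions. Harvest 1 minus harvest 3 was -1.21 log2 units for Csf1r, the receptor for macrophage colony-stimulating factor, and 2.46 for Mrc1, the mannose receptor. Lyz2, the lysozyme of this list, lay between 6.98 and 7.29. Of 8 adipocyte genes Fabp4 passed, with harvest 1 the highest on average. The lists of endothelial, osteoblast, smooth muscle and pericyte, epithelial, hepatocyte, mast cell, erythroid, and B and T cell genes had 0 genes past limma's F-test after adjustment. At an unadjusted p under 0.05 the mast cell list had 6 of 7, the endothelial list 3 of 9, the smooth muscle and pericyte list 3 of 8, the epithelial list 2 of 8, the B and T cell list 1 of 9 and the other lists 0. The mast cell list summed to 25.3 to 29.8 in harvest 1, 31.6 to 37.6 in harvest 2 and 20.0 to 24.8 in harvest 3. The sums did not overlap and had the order 2, 1, 3, but 0 of its 7 genes had that order on their own arrays. Over the 7 genes the median difference from harvest 3 was 0.03 log2 units for harvest 1 and 0.58 for harvest 2. The endothelial list summed to 8.44 to 9.78, 6.51 to 7.85 and 5.82 to 5.97, in the order 1, 2, 3. Over its 9 tested genes the median difference from harvest 3 was -0.01 log2 units for harvest 1 and 0.29 for harvest 2. The osteoblast list summed to 19.1 to 21.1, 24.1 to 24.4 and 20.7 to 21.5, so harvest 2 was the highest and harvests 1 and 3 overlapped, and the epithelial list had the same pattern, with at most 1.76 in harvest 2 and 1.23 in harvest 3. In the smooth muscle and pericyte list the sums were 0.651 to 0.793 in harvest 1, 0.867 to 1.14 in harvest 2 and 0.617 to 0.811 in harvest 3, and its gene Cspg4 lay between -2.84 and -0.96. Levels of a gene of each further list, chosen by its probe signal, are given for Egfl7 (endothelial, 1.59 to 2.67), Spp1 (osteoblast, 4.01 to 4.46), Trf (hepatocyte, 2.52 to 2.70), Cpa3 (mast cell, 3.40 to 4.32) and Cd79b (B and T cell, 0.46 to 1.19). For the others they are Lpl (adipocyte, -0.57 to 0.87), Krt5 (epithelial, -1.67 to -0.47) and Epor (erythroid, -2.90 to -2.23). The endothelial gene Tek and the hepatocyte gene Ttr were not well above background on any array. The part of these marker genes in the harvest difference of the matrix genes was not tested.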

How the data were processed

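Cy3-labelled total RNA was measured on Agilent 1-colour arrays, and per the file headers the deposited intensity comes from Feature Extraction 10.1.1.1, with background subtraction and detrending inside each array. The authors' deposited matrix of log2 values was used as an alternative. Its columns follow the log2 median signal (r of 1.00 in each) with medians of 7.38 to 7.42; the sources used here do not give its centring or steps, and the submitters' processing notes name limma without a version.

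Here the processed intensity was scaled to the array's 75th percentile and turned to log2, spots of a probe were averaged without outlier flags, and probes well above background in any spot on at least 3 of 6 arrays were kept (36392 of 41174). Through RefSeq accessions (assembly GRCm38.p6, for names only, since the array was annotated on mm8) 23374 probes got a symbol. A gene is its brightest passing probe. The fits used limma 3.58.1 (R 4.3.3), for TGF-β1 without a block (3 arrays against 3) and with the replicate number as a block, and between harvests with an F-test; adjusted p-values are Benjamini-Hochberg. Same-numbered samples deviated together from their group means (r of 0.607, 0.777 and 0.545, against -0.725 to 0.0713 for other combinations), so the numbers in the labels were taken as pairs. The median residual SD of the 40 genes was 1.50 without and 0.21 with the block. The number of arrays limits the precision.

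The 40 genes, the gene lists and the choice of genes to name were made with earlier results of these data known. The rule names all 40, up to 6 other matrix genes with the widest harvest difference, those past the TGF-β1 test, and 1 gene of each marker list, that with the highest probe signal; further marker genes were named after their values were seen. Alternatives were normalization, background correction, filter, probe rule, slide, block and leaving out arrays. Normexp used the median spot signal, not the mean signal planned.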

Additional observations from a re-analysis of the deposited data

How the results depend on the processing

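The count of matrix and mesenchymal genes past the F-test between harvests was 27 and lay between 25 and 32 in the 15 other settings, of which the lowest and highest on leaving out 1 array were 25 and 32. The number of all genes and transcripts past it moved more, from 893 to 1663 with the authors' matrix values, to 2031 with normexp and quantile normalization, and to between 432 and 8095 on leaving out 1 array. The count higher in harvest 2 than in harvest 1 went from 14 to 0 with no filter, to 0 with the slide as a block, and to between 0 and 29 on leaving out 1 array; the cause was not tested. For TGF-β1 the count over all genes and transcripts was 74 without the block, 190 with the replicate block, 171 with the authors' matrix values, 210 with normexp and quantile normalization, and 7 to 23 on leaving out 1 array. With the replicate block and without replicate 1, 2 or 3 in both groups it was 42, 26 and 55, on fewer samples, and the fit with block and slide together gave the same 55, since pair 3 then carries no information. The count of the 40 genes changed by TGF-β1 was 0 in every one of these fits. Within slide 1 and within slide 2 a group has 1 array, so those values have no test. No called difference of the 40 genes changed sign in a setting run. Probes are compared with themselves across arrays, and sizes at dim levels depend on the background correction.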
